A study of Mus musculus with 32 samples.

Results

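The genes described are the secreted and membrane-bound metalloproteinases of the matrix and their tissue inhibitors, chosen by name: protein-coding mouse genes whose symbol starts with Mmp or Adam followed by a digit, with Adamts or with Timp. The rule used no measured value and gave 83 genes of the 49585 entries in the count table, made up of 33 Adam, 19 Adamts, 5 Adamts-like, 22 Mmp and 4 Timp genes. Of these 83 genes, 41 had enough counts to be tested among 13258 genes in all, 26 were counted but fell under the filter on low counts, and 16 had no count in any library after rounding. Mmp1a was left out because the annotation lists it as a polymorphic pseudogene.

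The study exposed FE1 cells, an established mouse cell line labelled as lung epithelial cells, to hydrazine, a small reactive nitrogen base used as a rocket fuel and chemical reagent. Bulk poly-A RNA was sequenced from 10 groups: vehicle (0 mM) and 1, 4, 6 and 10 mM hydrazine, each collected at the end of 4 h of exposure or after 4 h of exposure and a further 20 h of washout. Every group held 3 libraries, lettered a to c, except 4 mM at 4 h, which held 5, lettered a to e. The 32 libraries held 10560942 to 17086721 counts, and all cells came from the same line, with no other agent or genotype given in the labels. Nothing in the labels says that libraries of a group came from separate cultures, so the p-values measure the spread between these libraries, which may be technical.

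Matrix metalloproteinases (MMPs) are zinc enzymes that are made as inactive precursors and cleave collagens, laminins, proteoglycans and many growth factors outside the cell. ADAM proteins sit in the plasma membrane and release the outer parts of ligands and receptors, a step called shedding, while the secreted ADAMTS enzymes cut proteoglycans, procollagens and microfibril proteins, and the related ADAMTS-like proteins lack the protease domain. Tissue inhibitors of metalloproteinases (TIMPs) bind the active site of these enzymes, and in lung the balance between proteases and inhibitors is known for its part in repair, fibrosis and emphysema.

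The labelled cell type was set against marker genes. Of 19 markers of lung epithelium, 6 passed the filter, with Hopx at 5.53 to 20.3 CPM (counts scaled to a common library total), and Nkx2-1, Sftpc and Sftpa1 were at 0 in all 32 libraries. Epcam was at 0 in 27 libraries. Of 14 markers of mesenchyme, 13 passed, among them Col1a1 at 4628 to 6585 CPM and Vim at 4008 to 7564 CPM. Fn1, Col1a2, Acta2, Col3a1 and S100a4 had medians from 5460.9 down to 571.5 CPM, and Tagln had a median of 38.7 CPM. Other mesenchymal markers were low, with medians of 9.97 CPM for Dcn, 6.21 for Pdgfra, 4.61 for Pdgfrb, 3.5 for Thy1 and 0.972 for Postn. Lum was at 0 in all 32 libraries. Of 6 endothelial markers 0 passed, and of 10 leukocyte markers only Cd68 passed. The summed mesenchymal markers ran from 20458 to 21992 CPM in the vehicle at 4 h and from 24958 to 26168 CPM at 10 mM, and the summed epithelial markers from 13.9 to 17.5 CPM and from 9.8 to 11.2 CPM. The summed leukocyte markers ran from 1.7 to 2.51 CPM and from 2.99 to 4.61 CPM in the same groups. Cd68 made up most of that sum, with a median of 1.99 CPM over all libraries, where the next highest, of Lyz2, was 0.178 CPM. The part of such shifts in the results below was not tested, and fewer cells of a kind and less RNA per cell cannot be told apart in bulk RNA.

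Library c of 6 mM after washout stood apart. Its chi-square per degree of freedom against libraries a and b of its group was 46.6 and 47.5, where every other pair of replicates lay between 2.1 and 13.4. Among the genes described, it held Adamts12 at 10.7 CPM against 38.2 and 42.1, Timp3 at 1867 CPM against 2583 and 2606, and Timp1 at 152 CPM against 107 and 106. Calls that were lost without this library are named as such, and some counts are given with and without it.

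The sequences shown are the promoters of the collagenase gene Mmp13 and the stromelysin genes Mmp3 and Mmp10, which lie in 1 gene cluster and were all higher at 10 mM at 4 h. The cluster spans chr9:7272514-7699585 in GRCm38, about 427 kb, and holds 9 of the 83 genes. The remaining 6, Mmp12, Mmp1b, Mmp8, Mmp27, Mmp20 and Mmp7, had at most 2 counts in any library. Each run gives the 120 bases before the RefSeq start of transcription on the + strand (assembly GRCm38.p6). The runs lie at chr9:7272394-7272513 for Mmp13, chr9:7445702-7445821 for Mmp3 and chr9:7502222-7502341 for Mmp10. Capitals mark the letters TGANTCA, where N is any base. AP-1 factors of the Fos and Jun families bind TGACTCA and TGAGTCA, the forms marked here. The search counted any middle base, so its matches can include other forms.
Mmp13: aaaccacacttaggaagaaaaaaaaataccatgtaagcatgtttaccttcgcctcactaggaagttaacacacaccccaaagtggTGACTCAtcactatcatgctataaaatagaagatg
Mmp3: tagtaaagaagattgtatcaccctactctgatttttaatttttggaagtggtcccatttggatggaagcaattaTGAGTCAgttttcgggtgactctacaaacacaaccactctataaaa
Mmp10: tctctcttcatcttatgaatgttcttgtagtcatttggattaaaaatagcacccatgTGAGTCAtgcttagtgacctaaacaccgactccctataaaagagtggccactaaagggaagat
The match began 35 bases before the start in Mmp13, 46 bases before it in Mmp3 and 63 bases before it in Mmp10. The letters are their own reverse complement, so 1 search covered both strands. Within 250 bases before the start, 4 of the 28 tested genes with a RefSeq promoter entry held the letters, the other being Adam19 in 1 of its 3 windows, at 131 bases before the start. The letters occurred in 6.75% of 32851 windows and 7.82% of 27025 genes. A match describes the letters and does not show that a factor binds there.

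The inhibitor genes Timp3 and Timp2 had the highest levels in both vehicle groups. On a scale that corrects for length (RPKM, in which library-scaled counts are divided by the exon length in kilobases), Timp3, whose product is held in the matrix and inhibits ADAM17 and several ADAMTS enzymes, stood at 356.5 ± 11.1 (SD, n = 3) in the vehicle at 4 h. Timp2, which takes part in the activation of MMP2 as well as inhibiting MMPs, followed at 294.5 ± 4.37 RPKM. Timp1, a secreted inhibitor of most MMPs, and Adam9, a membrane sheddase, stood at 134 ± 5.64 and 134 ± 2.92 RPKM and did not differ beyond their spread. In the washout vehicle Adam9 stood at 139 ± 0.219 RPKM and Timp1 at 122 ± 8.3 RPKM. Next came Adam10, the sheddase of Notch and cadherins, at 50 ± 1.7 RPKM and Mmp14, the membrane-anchored collagenase that activates MMP2, at 28.4 ± 1.91 RPKM. Adamts5 and Adamts1, which cut aggrecan and versican, stood at 17.2 ± 1.15 and 17.0 ± 1.43 RPKM and could not be ordered against each other.

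In all, 12 genes lay over 10 RPKM in the 4 h vehicle, 13 between 1 and 10 RPKM, and 16 tested genes under 1 RPKM, down to Adamtsl1 at 0.0419 ± 0.0207. Relative to its mean, Mmp13 had the widest spread among genes over 1 RPKM, at 8.54 ± 4.86. The gelatinase gene Mmp2 stood at 0.951 ± 0.144 RPKM, and the gene of the other gelatinase, Mmp9, had at most 3 counts in a library and was not tested. Timp4, the fourth inhibitor gene, had at most 1 count. Among the 26 genes under the filter the highest count in a library was 9, for Adam32. The 16 genes without a count included Mmp7, the matrilysin gene, Adamts19, Adamts20 and a run of Adam genes known for expression in testis, such as Adam2 and Adam24.

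**Figure D1:**
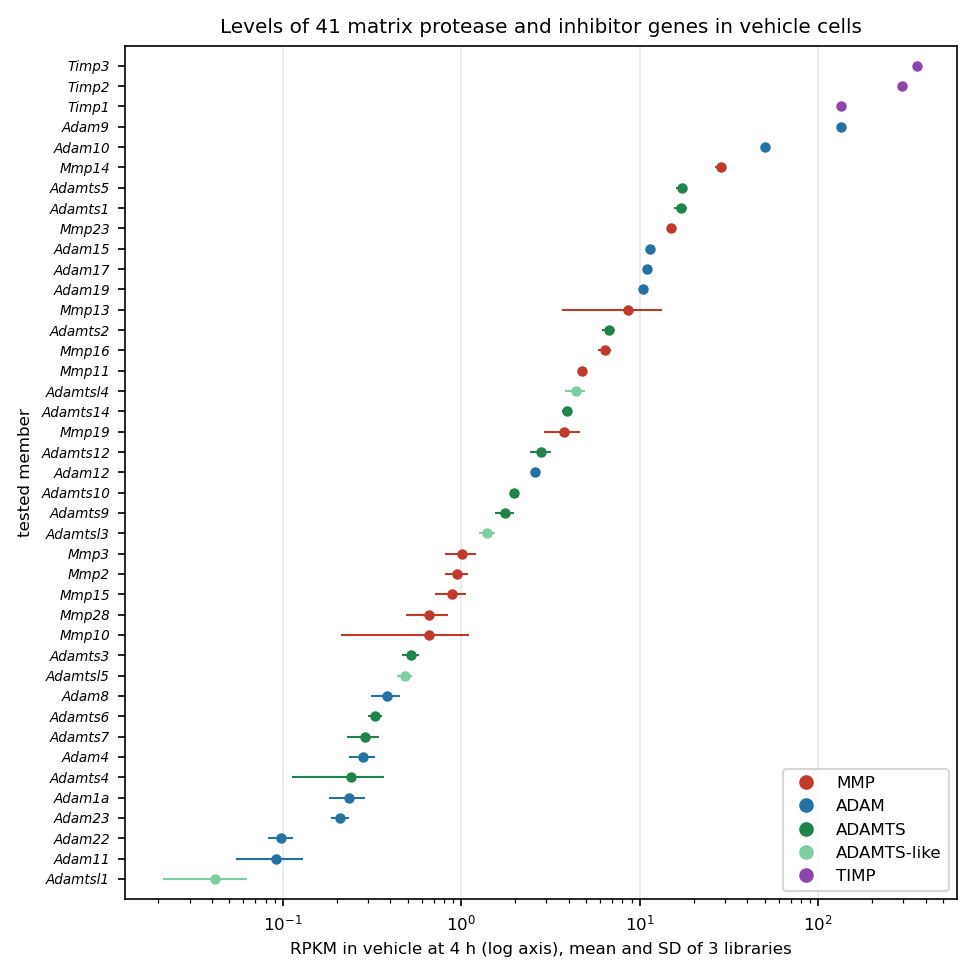
Level of each of the 41 tested genes in the vehicle at 4 h, in RPKM on a log axis, with dots at the mean and bars at 1 SD of 3 libraries, coloured by family. Timp3, Timp2, Timp1 and Adam9 lie over 100 RPKM, and the MMP genes range from Mmp14 at 28.4 to Mmp10 at 0.656 RPKM.

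At 4 h, the number of these genes that passed the test against the vehicle was higher at higher doses, as it was for all genes. The test was edgeR's quasi-likelihood test, with p-values adjusted by the method of Benjamini and Hochberg over 13258 genes and a threshold of 0.05. At 1 mM, 8 of the 41 passed, or 19.5%, where 9.84% of all genes passed. Of the 8, 5 were higher (4.48% of all genes) and 3 lower (5.36%). At 4 mM, 17 passed, or 41.5%, beside 38.6% of all genes, with 9 higher (19.5% of all genes) and 8 lower (19.1%). At 6 mM, 18 passed, or 43.9%, beside 39.8%, with 12 higher (20.3%) and 6 lower (19.6%). At 10 mM, 19 passed, or 46.3%, beside 50.1%, with 13 higher (26.0%) and 6 lower (24.1%). From 4 mM upwards the share of the 41 that passed thus lay close to that of all genes. The median log2 fold change of the 41 was 0.021, 0.10, 0.15 and 0.075 at the 4 doses, beside 0.014, 0.031, 0.025 and 0.015 over all genes tested. Without vehicle library c the count at 1 mM was 3, beside 4.96% of all genes, and that at 4 mM was 11, beside 31.0%, the lowest with 1 library left out. At 1 mM it was 5 without vehicle library a (5.21%), 4 without library b of 1 mM (5.44%) and 5 without its library c (7.14%).

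After washout, fewer genes passed. At 1 mM, 2 of the 41 did (0.981% of all genes), Mmp19 higher (0.694%) and Adamts1 lower (0.287%). At 4 mM, 3 did (3.48%), of which Mmp19 and Adamts7 were higher (2.31%) and Adamts1 lower (1.17%). At 6 mM, 13 passed, or 31.7%, beside 11.1% of all genes, with 10 higher (6.43%) and 3 lower (4.63%). At 10 mM, Adam8, Adamtsl4, Adamtsl5 and Mmp15 passed, all higher, beside 5.32% of all genes in either direction and 3.38% higher. Their median log2 fold change was 0.023, 0.18, 0.12 and 0.098 at the 4 doses, beside -0.002, -0.001, -0.002 and -0.008 over all genes.

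Without the deviating library c of 6 mM, the count at 6 mM after washout was 8 (7 higher, 1 lower), or 19.5%, with 7 of them shared with the 13, beside 6.26% of all genes. The count at 4 mM was then also 8, beside 7.26%, and at 10 mM it was 6, or 14.6%, beside 9.0%. At 1 mM, edgeR gave 0 genes without vehicle library c or library b or c of 1 mM, with 4, 7 and 3 genes at an unadjusted p under 0.05, while DESeq2 with all libraries gave 2. The shares of all genes were then 0.037%, 0.104% and 0.0222%. Omitting vehicle library a or b, library a of 1 mM, library a of 1 mM at 4 h or library b of 10 mM gave 1 gene at 1 mM, beside 0.372% to 1.45% of all genes. At 4 mM, 1 gene passed without vehicle library c (1.14% of all genes) or without library a of 4 mM (1.41%). At 6 mM, 7 passed without vehicle library a (6.5%), b (6.63%) or c (5.42%). At 10 mM, 2 passed without vehicle library a (3.76%) or c (3.31%) or without library a (2.99%) or b (3.31%) of 10 mM. With only the compared groups in the model, 0 of the 41 passed at 6 mM in edgeR (15 at an unadjusted p under 0.05), beside 0.00804% of all genes, while DESeq2 with all libraries gave 12. Each dose was compared with the same 3 vehicle libraries of its time, so the comparisons within a time are not independent.

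In the 8 comparisons with vehicle, 29 of the 41 genes passed at least once, or 70.7%, beside 69.8% of all genes, and 12 never did. The 12 were Adam10, Adam12, Adam17, Adamts3, Adamts4, Adamts10, Adamts12, Adamts14, Adamtsl1, Adamtsl3, Mmp16 and Timp1. At 4 h, 24 genes passed at some dose, or 58.5%, beside 66.8% of all genes. Of these, 3, Adamts2, Adamts7 and Mmp15, were higher at all 4 doses (7.32%, beside 1.67% of all genes), and Adam1a was lower at all 4 (2.44%, beside 2.25%). After washout 14 passed at some dose, or 34.1%, beside 13.9%. Of the 14, 5, Adam8, Mmp14, Mmp19, Mmp23 and Timp3, had not passed at 4 h, which is 12.2% of the 41, beside 3.0% of all genes. At 6 mM, 8 genes passed in the same direction at both times (19.5%, beside 5.55%), and at 10 mM 3 did, Adamtsl4, Adamtsl5 and Mmp15 (7.32%, beside 2.57%). These shares include the deviating library c of 6 mM after washout and were not recounted without it. Without it, 8 of the 41 passed at 6 mM after washout (6.26% of all genes), 8 at 4 mM (7.26%) and 6 at 10 mM (9.0%). The 6 mM washout calls of Adam8, Mmp14, Mmp19, Timp3, Adamts5 and Adamts7 were then lost. With all libraries, Mmp14 and Timp3 had passed at no other dose.

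**Figure D2:**
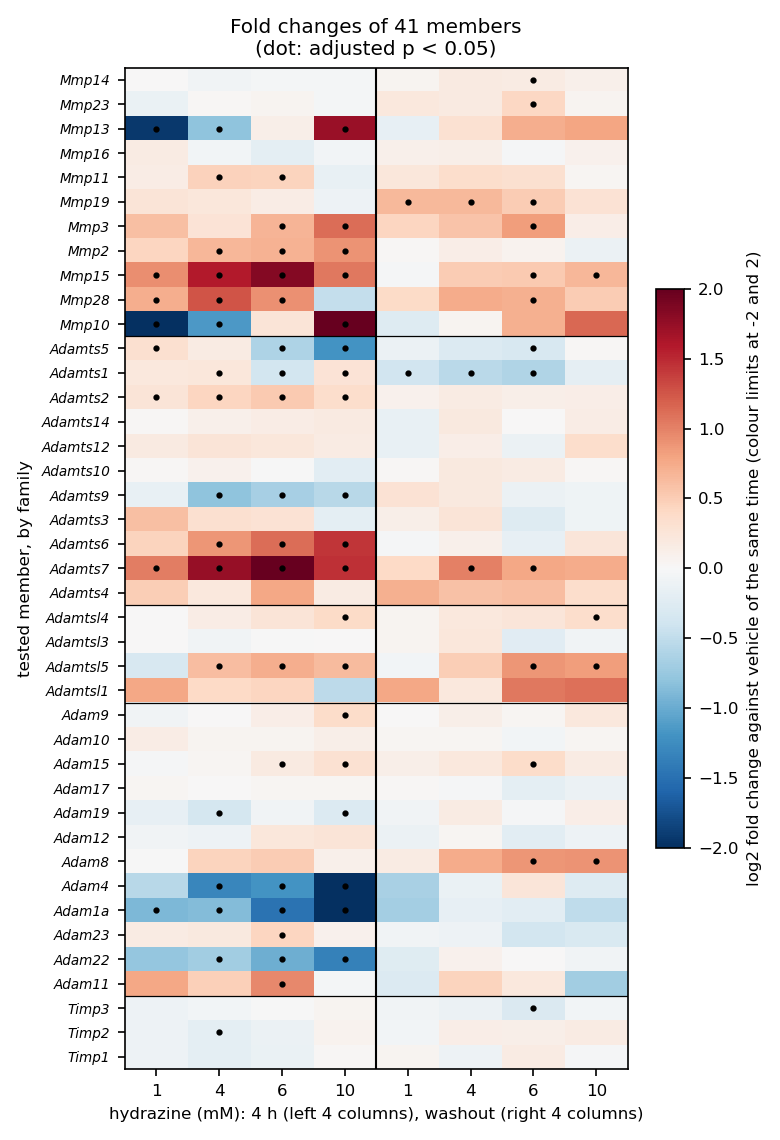
Log2 fold change against the vehicle of the same time for the 41 tested genes, ordered by family and level, with doses in mM at 4 h (left) and after washout (right); dots mark adjusted p < 0.05 and colours saturate at -2 and 2. Dots gather at 4 to 10 mM at 4 h, the TIMP genes are pale throughout, and Mmp13 and Mmp10 turn from blue at 1 mM to red at 10 mM.

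All 3 tested genes of the chromosome 9 cluster were higher at 10 mM at 4 h, and Mmp13 and Mmp10 were lower at 1 and 4 mM. Mmp13, which encodes collagenase-3, a protease of fibrillar collagen (chr9:7272514-7283331), stood at 34.2, 8.68 and 25.6 CPM in the 4 h vehicle, 4.81, 5.84 and 7.13 at 1 mM and 17.8, 9.1, 17.3, 11.4 and 10.5 at 4 mM. Mmp13 held 24.6, 17.6 and 32.2 CPM at 6 mM, and 87.9, 64.5 and 73.6 at 10 mM. The 3 libraries of 10 mM lay above all others at 4 h and those of 1 mM below all vehicle libraries, while vehicle library b lay well under a and c. For Mmp13 the log2 fold change was -1.92 ± 0.36 (adjusted p = 0.000988) at 1 mM, -0.80 ± 0.28 (adjusted p = 0.0278) at 4 mM, 0.12 ± 0.31 (adjusted p = 0.782) at 6 mM and 1.72 ± 0.29 (adjusted p = 3.04e-05) at 10 mM, or 3.3-fold higher. The call at 4 mM was lost without library a or c of the vehicle or b, d or e of 4 mM (adjusted p up to 0.37). Those at 1 and 10 mM were kept without any 1 library, with log2 values of -2.32 to -1.51 and 1.33 to 2.13, and the call at 1 mM was lost with only the compared groups in the model (adjusted p = 0.124).

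After washout, Mmp13 stood at 9.4, 9.79 and 10.4 CPM in the vehicle, 9.49, 9.56 and 7.41 after 1 mM and 14.5, 12.5 and 9.84 after 4 mM. Mmp13 held 16.1, 17.8 and 15.0 CPM after 6 mM, and 18.4, 14.2 and 18.5 after 10 mM. The libraries of 6 and 10 mM lay above all vehicle libraries, but the log2 fold changes of 0.73 and 0.80 did not pass (adjusted p = 0.166 and 0.202). The vehicle itself was lower after washout than at 4 h, by 1.21 ± 0.34 in log2 (adjusted p = 0.0298), a call lost without library a or c of the 4 h vehicle or any library of the washout vehicle (adjusted p up to 0.23).

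Mmp10, which encodes the stromelysin-2 protease (chr9:7502352-7510240), had few counts and was singled out after its values were seen. It stood at 1.46, 0.255 and 1.67 CPM in the 4 h vehicle, 0.083, 0.0749 and 0.369 at 1 mM and 0.319, 0.689, 0.434, 0.433 and 0.623 at 4 mM. Mmp10 held 1.01, 0.688 and 2.31 CPM at 6 mM, and 4.81, 3.18 and 5.46 at 10 mM. The libraries of 10 mM lay above all others at 4 h, and 1 mM overlapped vehicle library b. Its log2 fold change was -2.50 ± 0.60 (adjusted p = 0.00609) at 1 mM, -1.14 ± 0.44 (adjusted p = 0.0379) at 4 mM and 2.00 ± 0.39 (adjusted p = 9.07e-05) at 10 mM. The call at 1 mM was lost without vehicle library c (adjusted p = 0.0607), and that at 4 mM without vehicle library a or c or 4 mM library a, c or d (adjusted p up to 0.275). With 1 library left out, the log2 value at 1 mM lay at -3.69 to -2.14. After washout its log2 fold change was 1.15 at 10 mM and did not pass (adjusted p = 0.115).

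Mmp3, which encodes stromelysin-1, a protease of proteoglycans and other MMP precursors (chr9:7445822-7455975), did not pass at 1 mM. It stood at 1.55, 2.21 and 1.67 CPM in the 4 h vehicle, 3.57, 1.65 and 3.07 at 1 mM and 2.3, 1.72, 1.74, 2.53 and 2.55 at 4 mM. Mmp3 held 2.32, 2.67 and 3.8 CPM at 6 mM, and 3.24, 3.69 and 4.86 at 10 mM. At 6 and 10 mM every library lay above the vehicle, and at 1 and 4 mM some did. For Mmp3 the log2 fold change was 0.69 ± 0.27 (adjusted p = 0.0447) at 6 mM and 1.12 ± 0.26 (adjusted p = 0.00072) at 10 mM, where it was 2.18-fold higher, and 0.60 at 1 mM (adjusted p = 0.174). The call at 6 mM was lost in 14 of the 32 omissions of 1 library, among them vehicle libraries a and c and 6 mM libraries b and c (adjusted p up to 0.266). After washout, Mmp3 stood at 4.48, 5.02 and 4.34 CPM in the vehicle, 5.81, 6.81 and 6.0 after 1 mM and 7.55, 7.14 and 5.89 after 4 mM. Mmp3 held 6.38, 8.94 and 9.43 CPM after 6 mM, and 4.27, 4.22 and 6.52 after 10 mM. The libraries of 1, 4 and 6 mM lay above the vehicle. The vehicle itself was 2.53-fold higher than at 4 h (log2 1.34 ± 0.26, adjusted p = 0.00101), and 6 mM rose above it by 0.83 ± 0.21 (adjusted p = 0.0118) in log2. That call was lost without vehicle library c (adjusted p = 0.0559), and without the deviating library c of 6 mM the adjusted p was 0.048.

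Among the membrane-anchored MMPs, Mmp15 rose at every dose at 4 h and Mmp14 passed at none. Mmp15 (chr8:95352268-95375080), a relative of Mmp14 that is likewise held at the cell surface, stood at 4.38, 5.87 and 4.09 CPM in the 4 h vehicle, 9.13, 10.6 and 7.68 at 1 mM and 14.7, 16.3, 12.6, 13.4 and 15.0 at 4 mM. Mmp15 held 16.5, 18.3 and 16.8 CPM at 6 mM, and 9.62, 10.9 and 9.5 at 10 mM. All exposed libraries at 4 h lay above all vehicle libraries, with 6 mM highest and 10 mM back near the level of 1 mM. For Mmp15 the log2 fold change was 0.92 ± 0.16 (adjusted p = 0.000386) at 1 mM, 1.59 ± 0.15 (adjusted p = 5.15e-10) at 4 mM, 1.84 ± 0.16 (adjusted p = 8.72e-11) at 6 mM and 1.06 ± 0.16 (adjusted p = 3.32e-06) at 10 mM, or 1.9-, 3.01-, 3.58- and 2.09-fold higher. None of these calls was lost without any 1 library. The level at 10 mM was lower than at 4 mM by 0.53 ± 0.13 in log2 (adjusted p = 0.00114).

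After washout, Mmp15 stood at 5.73, 6.36 and 4.83 CPM in the vehicle, 6.55, 3.88 and 6.18 after 1 mM and 8.49, 8.45 and 7.18 after 4 mM. Mmp15 held 9.44, 7.39 and 7.44 CPM after 6 mM, and 8.6, 9.59 and 8.76 after 10 mM. The libraries of 4, 6 and 10 mM lay above the vehicle, and those of 1 mM overlapped it. For Mmp15 the log2 fold change was 0.52 ± 0.16 (adjusted p = 0.0312) at 6 mM, lost without vehicle library a or c or 6 mM library a (adjusted p up to 0.144), and 0.67 ± 0.16 (adjusted p = 0.00821) at 10 mM, lost without vehicle library c (adjusted p = 0.0713). At 4 mM it was 0.51 and did not pass (adjusted p = 0.0727). The effect after washout was smaller than that at 4 h, by 1.08 ± 0.22 in log2 at 4 mM and 1.32 ± 0.23 at 6 mM (adjusted p = 0.000656 and 5.59e-05).

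Mmp14 (chr14:54431612-54445364), the most abundant MMP gene per length, stood at 159, 182 and 168 CPM in the 4 h vehicle, 173.5, 175 and 165 at 1 mM and 171, 168, 158, 155 and 153 at 4 mM. Mmp14 held 168, 157.5 and 168 CPM at 6 mM, and 167, 155 and 171 at 10 mM. All groups overlapped, and its log2 fold changes at 4 h lay between -0.08 and 0.01. After washout, Mmp14 stood at 187.5, 171 and 174 CPM in the vehicle, 189, 176 and 188 after 1 mM and 204, 202 and 199 after 4 mM. Mmp14 held 196, 204 and 198.5 CPM after 6 mM, and 185, 188 and 197 after 10 mM. The libraries of 4 and 6 mM lay above the vehicle, and 6 mM passed at 0.17 ± 0.05 (adjusted p = 0.0433), a call lost in 11 of 32 omissions of 1 library, with an adjusted p of 0.0675 without the deviating library c and up to 0.16 without another. Mmp16, a membrane-anchored relative, never passed, with log2 values from -0.20 to 0.16. Mmp23, an unusual MMP of the cell membrane, passed after washout of 6 mM at 0.41 ± 0.09 (adjusted p = 0.00242), and stood at 0.24 (adjusted p = 0.0322) without library c.

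Mmp2 (chr8:92827291-92853420), the gelatinase that cuts denatured and basement membrane collagen and is activated at the surface by MMP14 and TIMP2, stood at 2.75, 3.15 and 3.72 CPM in the 4 h vehicle, 3.32, 5.17 and 4.42 at 1 mM and 5.16, 5.51, 4.95, 5.81 and 4.08 at 4 mM. Mmp2 held 5.11, 4.47 and 5.95 CPM at 6 mM, and 5.89, 6.27 and 5.76 at 10 mM. From 4 mM on, every library lay above every vehicle library. For Mmp2 the log2 fold change was 0.67 ± 0.15 (adjusted p = 0.000521) at 4 mM, 0.70 ± 0.16 (adjusted p = 0.00102) at 6 mM and 0.90 ± 0.16 (adjusted p = 3.25e-05) at 10 mM, and none of these calls was lost without any 1 library. After washout, Mmp2 stood at 5.95, 5.86 and 4.83 CPM in the vehicle, 5.32, 6.06 and 5.65 after 1 mM and 6.37, 6.12 and 5.76 after 4 mM. Mmp2 held 6.19, 5.32 and 5.96 CPM after 6 mM, and 5.86, 4.79 and 4.66 after 10 mM. All washout groups overlapped, and the vehicle lay 0.79 ± 0.16 in log2 above that of 4 h (adjusted p = 0.00195), close to the level of the exposed cells at 4 h.

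Mmp28 (chr11:83440768-83463071), the epilysin gene known from epithelia, stood at 2.23, 2.13 and 3.34 CPM in the 4 h vehicle, 4.56, 5.09 and 3.13 at 1 mM and 5.61, 7.72, 4.95, 5.5 and 6.79 at 4 mM. Mmp28 held 3.87, 4.99 and 5.62 CPM at 6 mM, and 2.16, 2.06 and 1.35 at 10 mM. Levels were highest on average at 4 mM, and at 10 mM they overlapped those of the vehicle. For Mmp28 the log2 fold change was 0.73 ± 0.23 (adjusted p = 0.0387) at 1 mM, 1.26 ± 0.20 (adjusted p = 9.68e-06) at 4 mM and 0.91 ± 0.23 (adjusted p = 0.00166) at 6 mM, and -0.48 at 10 mM (adjusted p = 0.122). The call at 1 mM was lost without library a or b of the vehicle or a or b of 1 mM (adjusted p up to 0.221). The summed epithelial markers ran from 13.9 to 17.5 CPM in the 4 h vehicle and 16.5 to 17.7 CPM at 1 mM. They ran from 12.4 to 14.5 CPM at 4 mM, 12.6 to 13.7 CPM at 6 mM and 9.8 to 11.2 CPM at 10 mM. The sums were lowest at 10 mM, and those at 1 mM overlapped those of the vehicle. Among these markers Hopx had the highest median, at 12.3 CPM. The part of the markers in this result was not tested. Between 4 and 10 mM Mmp28 fell by 1.74 ± 0.21 in log2 (adjusted p = 6.17e-08).

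After washout, Mmp28 stood at 1.69, 2.43 and 2.37 CPM in the vehicle, 3.03, 2.08 and 3.27 after 1 mM and 3.69, 4.01 and 3.11 after 4 mM. Mmp28 held 3.81, 3.84 and 2.95 CPM after 6 mM, and 3.06, 3.14 and 2.98 after 10 mM. The libraries of 4, 6 and 10 mM lay above those of the vehicle, and only 6 mM passed, at 0.72 ± 0.23 (adjusted p = 0.0435). That call was lost in 10 of the 32 omissions, among them each vehicle library and 6 mM libraries a and b (adjusted p up to 0.191).

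Mmp19 (chr10:128790910-128800824), an MMP of basement membrane proteins, passed only after washout among the comparisons with vehicle. It stood at 16.7, 10.7 and 12.5 CPM in the 4 h vehicle, 15.8, 16.5 and 15.7 at 1 mM and 16.0, 16.2, 15.2, 15.4 and 15.2 at 4 mM. Mmp19 held 13.2, 16.8 and 14.4 CPM at 6 mM, and 13.3, 13.9 and 10.2 at 10 mM. No dose passed at 4 h. After washout, Mmp19 stood at 18.1, 18.2 and 11.9 CPM in the vehicle, 19.6, 27.4 and 28.6 after 1 mM and 26.7, 24.1 and 25.1 after 4 mM. Mmp19 held 23.6, 22.4 and 23.0 CPM after 6 mM, and 22.4, 19.0 and 17.3 after 10 mM. The libraries of 1, 4 and 6 mM lay above all 3 vehicle libraries, of which c was the lowest. For Mmp19 the log2 fold change was 0.64 ± 0.15 (adjusted p = 0.0281) at 1 mM, 0.65 ± 0.15 (adjusted p = 0.0097) at 4 mM and 0.51 ± 0.15 (adjusted p = 0.0226) at 6 mM. Each of these calls was lost without vehicle library c (adjusted p up to 0.274, 0.128 and 0.158 over the omissions); the others that ended them were libraries b and c of 1 mM, a of 4 mM and c of 6 mM. Mmp19 shares 789 exonic bases with Tmem198b on the other strand, which rose by 0.28 and 0.24 after washout of 4 and 6 mM (adjusted p = 0.0286 and 0.0342). At 4 h the log2 fold change of Tmem198b was -0.24, -0.38 and -0.66 at 4, 6 and 10 mM (adjusted p = 0.00513, 0.000261 and 5.67e-08), where Mmp19 did not pass. Whether counting used strand was not given. Mmp11, the stromelysin-3 gene, which like Mmp10 was named after its values were seen, was higher at 4 mM by 0.47 ± 0.10 (adjusted p = 0.000503) and at 6 mM by 0.44 ± 0.11 (adjusted p = 0.00262) at 4 h, and lower at 10 than at 4 mM by 0.62 ± 0.10 (adjusted p = 9.15e-06), all in log2.

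**Figure D3:**
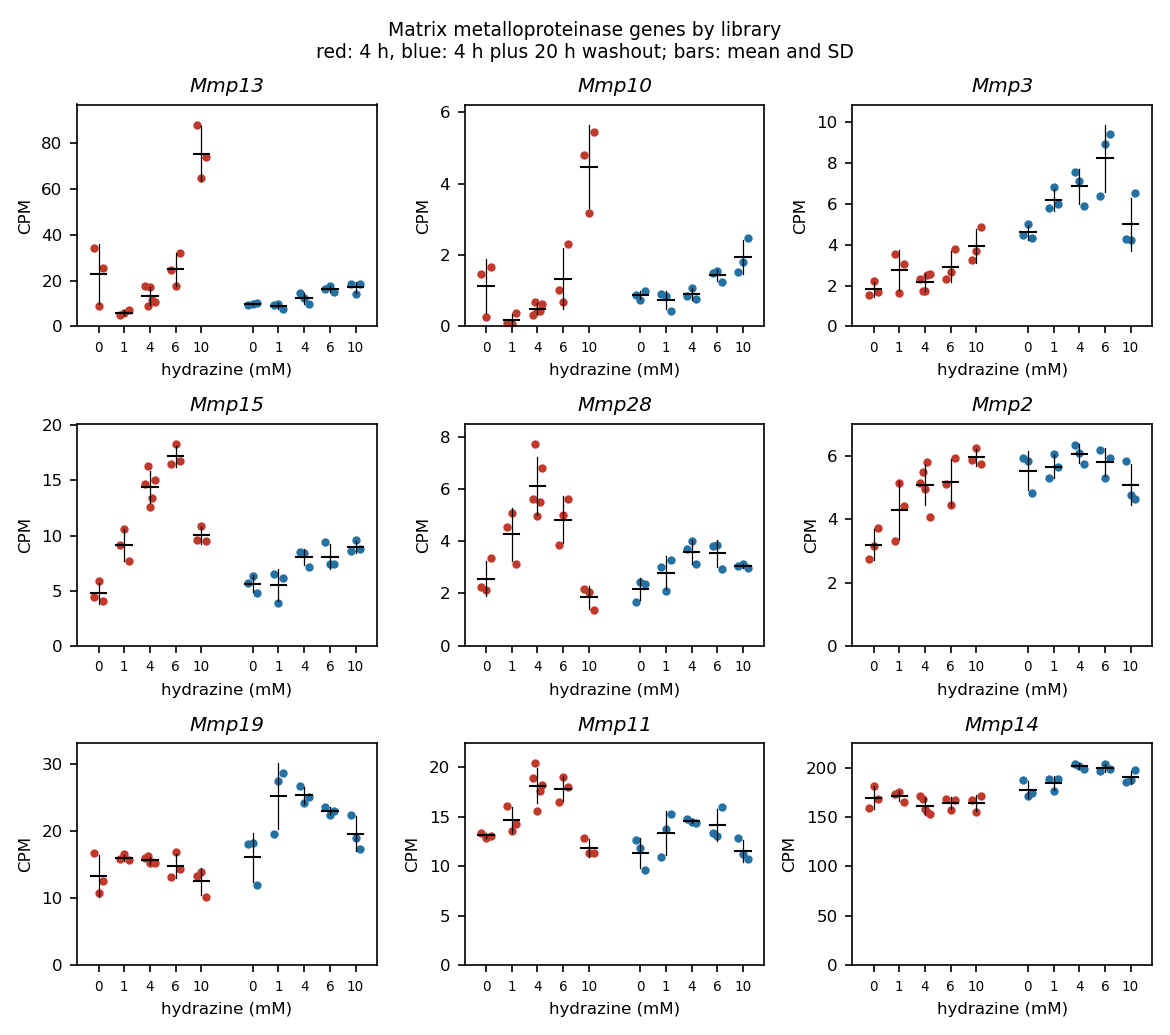
CPM of 9 MMP genes in every library (dots) by hydrazine dose in mM at 4 h (red) and after washout (blue), with the mean as a line and 1 SD as a bar. Mmp13 and Mmp10 are highest at 10 mM at 4 h, the mean of Mmp15 is highest at 6 mM and that of Mmp28 at 4 mM, and Mmp14 lies between 153 and 204 CPM throughout.

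Of the ADAMTS genes that act on aggrecan and versican, Adamts5 and Adamts9 fell at high dose at 4 h, and Adamts1 changed sign with dose. Adamts5 (chr16:85856173-85901828), the main aggrecan-cutting enzyme of mouse cartilage, stood at 172, 189.7 and 196 CPM in the 4 h vehicle, 225, 237 and 232 at 1 mM and 194, 227, 195.5, 211 and 212 at 4 mM. Adamts5 held 112, 134 and 117 CPM at 6 mM, and 80.0, 71.4 and 92.8 at 10 mM. The libraries of 1 mM lay above the vehicle, and those of 6 and 10 mM lay below all others. For Adamts5 the log2 fold change was 0.31 ± 0.10 (adjusted p = 0.0379) at 1 mM, -0.62 ± 0.10 (adjusted p = 9.33e-06) at 6 mM and -1.19 ± 0.10 (adjusted p = 6.58e-11) at 10 mM, where the level was 2.28-fold lower. The call at 1 mM was lost in 13 of 32 omissions, among them every vehicle and 1 mM library (adjusted p up to 0.218), and those at 6 and 10 mM in none.

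After washout, Adamts5 stood at 171, 189.5 and 164 CPM in the vehicle, 151.5, 159 and 171 after 1 mM and 123, 145 and 165.5 after 4 mM. Adamts5 held 159, 132 and 129 CPM after 6 mM, and 186, 185 and 164 after 10 mM. The 10 mM libraries overlapped those of the vehicle, while 6 mM was lower by 0.32 ± 0.10 in log2 (adjusted p = 0.0353). That call was lost without vehicle library a or b or 6 mM library b or c (adjusted p up to 0.178). At 10 mM the effect after washout exceeded that at 4 h by 1.22 ± 0.14 in log2 (adjusted p = 7.27e-08).

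Adamts1 (chr16:85793827-85803113), which lies beside Adamts5 on chromosome 16 and cuts versican, stood at 81.2, 93.9 and 94.7 CPM in the 4 h vehicle, 102, 104 and 107 at 1 mM and 98.3, 118, 107.5, 100.1 and 100.5 at 4 mM. Adamts1 held 65.8, 79.6 and 64.5 CPM at 6 mM, and 116, 99.2 and 110.2 at 10 mM. Libraries of 6 mM lay under the vehicle and those of 1, 4 and 10 mM above it. For Adamts1 the log2 fold change was 0.22 ± 0.08 (adjusted p = 0.0328) at 4 mM, -0.36 ± 0.09 (adjusted p = 0.0024) at 6 mM and 0.27 ± 0.09 (adjusted p = 0.0154) at 10 mM. The calls at 4 and 10 mM were lost without vehicle library a, without 4 mM library b or c, or without 10 mM library a or c (adjusted p up to 0.248 and 0.138), and that at 6 mM was kept.

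After washout, Adamts1 stood at 76.0, 77.9 and 76.0 CPM in the vehicle, 59.9, 55.2 and 61.2 after 1 mM and 46.1, 54.4 and 57.7 after 4 mM. Adamts1 held 55.3, 53.2 and 43.1 CPM after 6 mM, and 72.5, 66.9 and 62.7 after 10 mM. Every exposed library lay below every vehicle library, and the vehicle libraries were tight. It fell by 0.38, 0.54 and 0.60 in log2 at 1, 4 and 6 mM (adjusted p = 0.0417, 0.00113 and 0.000108), and the log2 value at 10 mM was -0.19 (adjusted p = 0.29). The call at 1 mM was lost in 8 of 32 omissions, among them every library of the groups compared (adjusted p up to 0.202). At 4 mM the direction was opposite at the 2 times, and the difference between them was -0.76 ± 0.13 in log2 (adjusted p = 6.48e-05).

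Adamts9 (chr6:92772699-92943492), a broadly expressed versican-cutting enzyme, stood at 30.1, 24.5 and 24.6 CPM in the 4 h vehicle, 20.7, 24.3 and 26.6 at 1 mM and 16.8, 14.5, 17.0, 13.2 and 14.3 at 4 mM. Adamts9 held 18.6, 13.2 and 18.3 CPM at 6 mM, and 19.8, 16.0 and 18.1 at 10 mM. Libraries of 4, 6 and 10 mM lay below all vehicle libraries. It fell by 0.81, 0.66 and 0.56 in log2 at 4, 6 and 10 mM (adjusted p = 4e-05, 0.00159 and 0.00514), and no omission of 1 library ended these calls. After washout, Adamts9 stood at 58.9, 61.2 and 51.5 CPM in the vehicle, 68.3, 59.3 and 81.7 after 1 mM and 66.1, 64.3 and 66.1 after 4 mM. Adamts9 held 57.1, 62.1 and 38.4 CPM after 6 mM, and 58.6, 52.1 and 51.4 after 10 mM. No dose passed after washout, and the vehicle stood 2.16-fold above that of 4 h (log2 1.11 ± 0.15, adjusted p = 1.44e-05). Adamts4, the other aggrecanase gene, had few counts and passed at no dose.

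Adamts7, whose product cuts the cartilage oligomeric matrix protein and thrombospondins (chr9:90163069-90208071), rose at every dose at 4 h. It stood at 1.72, 2.21 and 1.49 CPM in the 4 h vehicle, 3.15, 3.97 and 3.87 at 1 mM and 5.93, 6.41, 4.86, 6.12 and 7.02 at 4 mM. Adamts7 held 6.66, 9.12 and 6.77 CPM at 6 mM, and 4.12, 7.04 and 3.89 at 10 mM. Every exposed library lay above every vehicle library, with the highest mean at 6 mM. For Adamts7 the log2 fold change was 1.02 ± 0.25 (adjusted p = 0.00706) at 1 mM, 1.74 ± 0.22 (adjusted p = 1.84e-07) at 4 mM, 2.05 ± 0.23 (adjusted p = 2.99e-08) at 6 mM and 1.46 ± 0.24 (adjusted p = 9.63e-06) at 10 mM, or 2.02-, 3.35-, 4.13- and 2.76-fold higher. The call at 1 mM was lost without vehicle library c (adjusted p = 0.0627).

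After washout, Adamts7 stood at 1.76, 1.92 and 1.8 CPM in the vehicle, 2.37, 2.65 and 2.21 after 1 mM and 4.48, 2.77 and 3.82 after 4 mM. Adamts7 held 3.0, 3.03 and 3.39 CPM after 6 mM, and 2.87, 4.22 and 2.24 after 10 mM. All exposed libraries lay above the vehicle, and 4 mM and 6 mM passed at 1.01 ± 0.24 (adjusted p = 0.0159) and 0.78 ± 0.25 (adjusted p = 0.0388) in log2. Both calls rest on few libraries: the first was lost without vehicle library a or c or 4 mM library a or c, and the second without any vehicle library or 6 mM library c (adjusted p up to 0.108 and 0.112). Adamts7 shares 122 exonic bases with Tbc1d2b on the other strand, a gene with a mean of 1472 counts against 53.2 for Adamts7. Tbc1d2b fell by 0.73, 0.82 and 0.60 in log2 at 4, 6 and 10 mM at 4 h, the direction opposite to Adamts7. Adamts12, a close relative with the same known substrate, passed at no dose.

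Adamts6 (chr13:104287835-104496695), a protease of microfibril and cell surface proteins, stood at 2.83, 2.38 and 2.51 CPM in the 4 h vehicle, 3.15, 4.05 and 3.38 at 1 mM and 4.65, 5.31, 3.21, 5.38 and 5.04 at 4 mM. Adamts6 held 4.49, 6.28 and 6.11 CPM at 6 mM, and 7.36, 7.21 and 6.36 at 10 mM. The libraries of all 4 doses lay above the vehicle. For Adamts6 the log2 fold change was 0.45 ± 0.32 at 1 mM (adjusted p = 0.444), 0.88 ± 0.28 (adjusted p = 0.0144) at 4 mM, 1.12 ± 0.31 (adjusted p = 0.00446) at 6 mM and 1.43 ± 0.31 (adjusted p = 0.000282) at 10 mM. The call at 4 mM was lost without vehicle library b or c (adjusted p up to 0.0587). After washout, Adamts6 stood at 2.57, 2.76 and 2.54 CPM in the vehicle, 2.86, 1.8 and 3.0 after 1 mM and 3.07, 2.7 and 2.72 after 4 mM. Adamts6 held 2.5, 3.77 and 0.736 CPM after 6 mM, and 4.65, 2.73 and 1.93 after 10 mM. The groups overlapped the vehicle, and library c of 6 mM was the lowest of all. Adamts10, which is known to bind fibrillin, passed only between 10 and 4 mM at 4 h, at -0.30 ± 0.09 (adjusted p = 0.00498), a call lost without 10 mM library c (adjusted p = 0.0505).

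Adamts2 (chr11:50602084-50807573), the enzyme that removes the amino-terminal propeptide of fibrillar procollagens, rose by a smaller amount. It stood at 63.7, 67.6 and 56.9 CPM in the 4 h vehicle, 75.1, 76.6 and 72.7 at 1 mM and 85.2, 89.3, 79.6, 81.7 and 86.4 at 4 mM. Adamts2 held 91.3, 92.3 and 86.7 CPM at 6 mM, and 82.4, 75.2 and 82.3 at 10 mM. Every exposed library lay above every vehicle library. For Adamts2 the log2 fold change was 0.25 ± 0.08 (adjusted p = 0.0489) at 1 mM, 0.43 ± 0.07 (adjusted p = 3.02e-05) at 4 mM, 0.52 ± 0.08 (adjusted p = 6.97e-06) at 6 mM and 0.35 ± 0.08 (adjusted p = 0.00083) at 10 mM. The call at 1 mM was lost in 27 of 32 omissions (adjusted p up to 0.327), among them vehicle libraries a and c and each library of 1 mM, and the others in none. After washout, Adamts2 stood at 78.5, 82.3 and 70.2 CPM in the vehicle, 79.3, 69.4 and 95.2 after 1 mM and 83.0, 84.2 and 90.3 after 4 mM. Adamts2 held 87.4, 87.9 and 75.9 CPM after 6 mM, and 84.9, 85.3 and 82.2 after 10 mM. No dose passed, and the groups overlapped the vehicle except after 4 mM. The related procollagen proteases Adamts14 and Adamts3 passed at no dose.

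The ADAMTS-like genes, whose products bind microfibrils without cutting them, were singled out after their values were seen. Adamtsl5 was higher at 4, 6 and 10 mM at 4 h, with log2 fold changes of 0.62 ± 0.16 (adjusted p = 0.00246), 0.73 ± 0.17 (adjusted p = 0.00121) and 0.64 ± 0.17 (adjusted p = 0.00543). It was also higher after washout of 6 mM, at 0.88 ± 0.17 (adjusted p = 0.00136), and of 10 mM, at 0.84 ± 0.17 (adjusted p = 0.00271). None of these calls was lost without any 1 library. Adamtsl4, which takes part in the formation of the fibres that hold the lens in place, was higher at 10 mM by 0.38 ± 0.11 (adjusted p = 0.00492) at 4 h and 0.35 ± 0.10 (adjusted p = 0.041) after washout, calls lost without vehicle library a of the same time and, for the second, without vehicle library c, 10 mM library a or b or 1 mM library a of 4 h (adjusted p up to 0.0634 and 0.208).

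**Figure D4:**
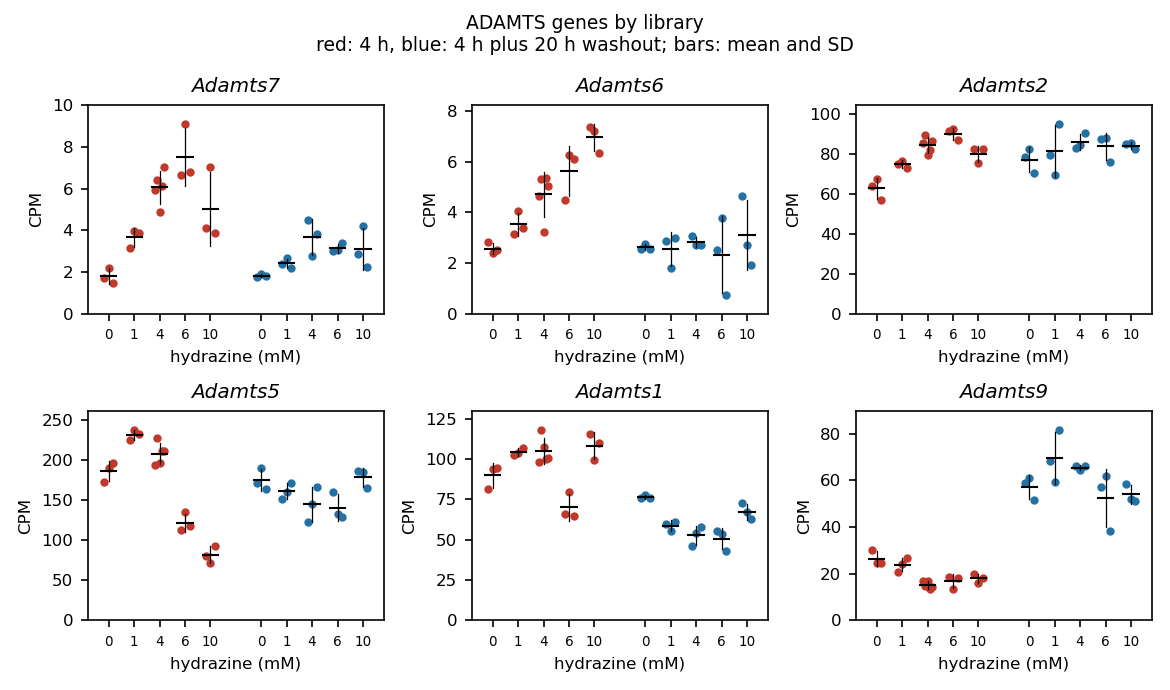
CPM of 6 ADAMTS genes in every library (dots) by hydrazine dose in mM at 4 h (red) and after washout (blue), with the mean as a line and 1 SD as a bar. Adamts7 and Adamts6 lie above their vehicle at every dose at 4 h, Adamts5 falls to 71.4 to 92.8 CPM at 10 mM, and Adamts9 is higher in every washout library than in any library at 4 h.

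The genes of the best known sheddases passed at no dose. Adam10 (chr9:70678997-70780229) stood at 241, 255 and 240.4 CPM in the 4 h vehicle, 264, 275 and 275 at 1 mM and 249.7, 253, 255, 267 and 248 at 4 mM. Adam10 held 251, 257 and 254 CPM at 6 mM, and 254, 281.5 and 264 at 10 mM. After washout, Adam10 stood at 245, 249.9 and 230.5 CPM in the vehicle, 246, 239.7 and 262.5 after 1 mM and 244, 243 and 261 after 4 mM. Adam10 held 253, 252 and 193 CPM after 6 mM, and 258, 245 and 241 after 10 mM. Its groups overlapped the vehicle except at 1 mM at 4 h, and its log2 fold changes lay between -0.06 and 0.15 over the 8 comparisons with vehicle, with the smallest adjusted p at 0.147. Adam17 (chr12:21323509-21373632), the sheddase of tumour necrosis factor and of epidermal growth factor receptor ligands, stood at 78.4, 79.1 and 79.0 CPM in the 4 h vehicle, 76.2, 87.4 and 78.2 at 1 mM and 80.3, 79.7, 82.8, 77.4 and 76.9 at 4 mM. Adam17 held 83.6, 77.6 and 82.9 CPM at 6 mM, and 80.7, 83.9 and 77.9 at 10 mM. After washout, Adam17 stood at 82.7, 88.7 and 90.4 CPM in the vehicle, 88.9, 87.8 and 89.2 after 1 mM and 86.1, 85.8 and 85.9 after 4 mM. Adam17 held 85.2, 80.2 and 63.8 CPM after 6 mM, and 77.4, 80.5 and 82.6 after 10 mM. The log2 fold changes of Adam17 lay between -0.19 and 0.05, with the smallest adjusted p at 0.0671, at 6 mM after washout, where library c was the lowest. An adjusted p over the threshold does not show that a level was the same.

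Among the other catalytic ADAM genes, Adam9 and Adam15 rose at 10 mM at 4 h, Adam19 fell there, and Adam8 rose after washout. Adam9 was higher at 10 mM by 0.36 ± 0.07 (adjusted p = 6.75e-05) in log2, from 536 to 559 CPM in the vehicle to 693 to 718 CPM. Adam15, whose product is known to bind integrins, was higher by 0.18 ± 0.07 (adjusted p = 0.0401) at 6 mM, by 0.31 ± 0.07 (adjusted p = 0.000547) at 10 mM and by 0.36 ± 0.07 (adjusted p = 0.00113) after washout of 6 mM, with the first lost in 20 of 32 omissions (adjusted p up to 0.264). The log2 value at that washout dose was 0.27 (adjusted p = 0.0105) without library c. Adam19, a neuregulin sheddase, was lower by 0.34 ± 0.09 (adjusted p = 0.00419) at 4 mM and 0.27 ± 0.11 (adjusted p = 0.037) at 10 mM, the latter lost without vehicle library a or b or 10 mM library b (adjusted p up to 0.111). Adam8, known as a surface protease of leukocytes, passed after washout, at 0.88 ± 0.26 (adjusted p = 0.0296) at 6 mM and 0.90 ± 0.26 (adjusted p = 0.039) at 10 mM. Summed leukocyte markers ran from 1.25 to 1.8 CPM in that vehicle, 2.14 to 2.81 CPM at 6 mM and 3.22 to 3.54 CPM at 10 mM. Most of this sum was Cd68, the only leukocyte marker that passed the filter. Its median over all libraries was 1.99 CPM, where the next highest, of Lyz2, was 0.178 CPM and Adgre1 was at 0 in all 32 libraries. The part of these markers in this result was not tested. Both Adam8 calls were lost without vehicle library a or b; the first was also lost without 6 mM library c (adjusted p = 0.0777) and the second without any 10 mM library (adjusted p up to 0.124 and 0.167). All changes are log2 values, and these genes were named after their values were seen.

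At 10 mM at 4 h the largest falls were in genes with few counts. Adam1a, the fertilin alpha gene of sperm (chr5:121518576-121545482), stood at 1.46, 1.62 and 2.23 CPM in the 4 h vehicle, 1.16, 0.899 and 0.799 at 1 mM and 1.15, 0.965, 0.781, 0.741 and 1.13 at 4 mM. Adam1a held 0.542, 0.602 and 0.743 CPM at 6 mM, and 0.196, 0.0858 and 0 at 10 mM. The libraries of all doses lay under the vehicle. At 10 mM the 3 libraries held 3 counts in all against 60 in the vehicle, a ratio of 0.044 per count sequenced (exact binomial 95% interval 0.00883 to 0.135, for counting error only), with an adjusted p of 2.07e-09. At 1, 4 and 6 mM the log2 fold change was -0.90 ± 0.27 (adjusted p = 0.0342), -0.87 ± 0.24 (adjusted p = 0.00426) and -1.47 ± 0.30 (adjusted p = 0.000175). The first was lost without vehicle library c or 1 mM library b or c and the second without vehicle library c (adjusted p up to 0.213 and 0.0707). Its exons share 1805 bases with Mapkapk5 and 4779 bases with Gm42878 on the same strand, so its counts are uncertain, and Mapkapk5, with a mean of 344 counts, changed by -0.28 at 10 mM (adjusted p = 0.00429).

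Adam4, another gene known from testis, fell by 1.31 at 4 mM, 1.20 at 6 mM and 2.23 at 10 mM in log2 (adjusted p = 0.00763, 0.0398 and 0.000644), from 0.601 to 0.836 CPM in the vehicle to 0.0748 to 0.257 CPM at 10 mM. With 1 library left out, the log2 value at 10 mM lay at -2.94 to -1.91. The first call was lost without vehicle library c, and the second without vehicle library b or c or 6 mM library a or b (adjusted p up to 0.0513 and 0.126). Of the ADAM genes whose products lack protease activity and serve as receptors in neurons, Adam22 fell by 0.70, 0.98 and 1.36 at 4, 6 and 10 mM (adjusted p = 0.0375, 0.0131 and 0.000723), with the first lost without vehicle library a or c or 4 mM library c or d and the second without vehicle library a or 6 mM library c (adjusted p up to 0.187 and 0.0701). Adam23 and Adam11 were higher at 6 mM, by 0.43 ± 0.16 (adjusted p = 0.0364) and 0.96 ± 0.36 (adjusted p = 0.0385), and each of these calls was lost without library a of the vehicle or a or c of 6 mM, and also without vehicle library b for Adam23 and c for Adam11 (adjusted p up to 0.188 and 0.158). At 10 mM neither passed.

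Of the 3 tested inhibitor genes, Timp2 passed against the vehicle at 4 h, Timp3 after washout and Timp1 at no dose. Timp1 (chrX:20870166-20874735) stood at 118, 114 and 124 CPM in the 4 h vehicle, 109.6, 109 and 112 at 1 mM and 104, 99.1, 110.3, 109 and 96.4 at 4 mM. Timp1 held 111, 100.2 and 115 CPM at 6 mM, and 119, 119 and 126 at 10 mM. After washout, Timp1 stood at 105, 104 and 117 CPM in the vehicle, 109, 128 and 102.5 after 1 mM and 98.4, 105 and 102 after 4 mM. Timp1 held 107, 106 and 152 CPM after 6 mM, and 104, 105 and 113 after 10 mM. The libraries of 1 and 4 mM at 4 h lay under the vehicle without passing, and library c of 6 mM after washout stood above all others. Its log2 fold changes lay between -0.20 and 0.17, with the smallest adjusted p at 0.0662.

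Timp2 (chr11:118301069-118355740) stood at 1129.7, 1149 and 1164 CPM in the 4 h vehicle, 1086, 1081 and 1045.5 at 1 mM and 1033, 984, 1042, 998 and 946 at 4 mM. Timp2 held 1139.7, 970.0 and 1078.5 CPM at 6 mM, and 1249, 1147 and 1231 at 10 mM. All libraries of 4 mM lay below all vehicle libraries. The log2 fold change at 4 mM was -0.20 ± 0.05 (adjusted p = 0.00161), which no omission of 1 library ended, and at 10 mM it was 0.08 (adjusted p = 0.261). Between 4 and 10 mM it rose by 0.27 ± 0.05 (adjusted p = 2.27e-05) in log2. After washout, Timp2 stood at 1054, 954 and 1018 CPM in the vehicle, 1011, 914 and 987 after 1 mM and 1076, 1131 and 1101 after 4 mM. Timp2 held 1103.5, 1132 and 1055 CPM after 6 mM, and 1141, 1125 and 1132 after 10 mM. The libraries of 4, 6 and 10 mM lay above the vehicle, with log2 fold changes of 0.13, 0.12 and 0.17 that did not pass (adjusted p = 0.216, 0.145 and 0.0703).

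Timp3 (chr10:86300372-86349506) stood at 2978, 2802 and 2929 CPM in the 4 h vehicle, 2554, 2745 and 2818 at 1 mM and 2884, 2784, 3018, 2702 and 2572 at 4 mM. Timp3 held 2846.5, 2885 and 2966 CPM at 6 mM, and 2912, 3064 and 3045 at 10 mM. No dose passed at 4 h, where groups overlapped and log2 fold changes lay between -0.10 and 0.05. After washout, Timp3 stood at 3001.5, 2959 and 2639.8 CPM in the vehicle, 2577, 2569.7 and 3006 after 1 mM and 2526, 2598 and 2790.1 after 4 mM. Timp3 held 2583, 2606 and 1867 CPM after 6 mM, and 2885, 2730.3 and 2670.4 after 10 mM. Library c of 6 mM was the lowest of all 32. The call at 6 mM, at -0.29 ± 0.09 (adjusted p = 0.0295), was lost without it, at -0.15 (adjusted p = 0.202), and also without vehicle library a or b. Timp3 shares 1733 exonic bases with Syn3 on the other strand, which had a mean of 4.97 counts.

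**Figure D5:**
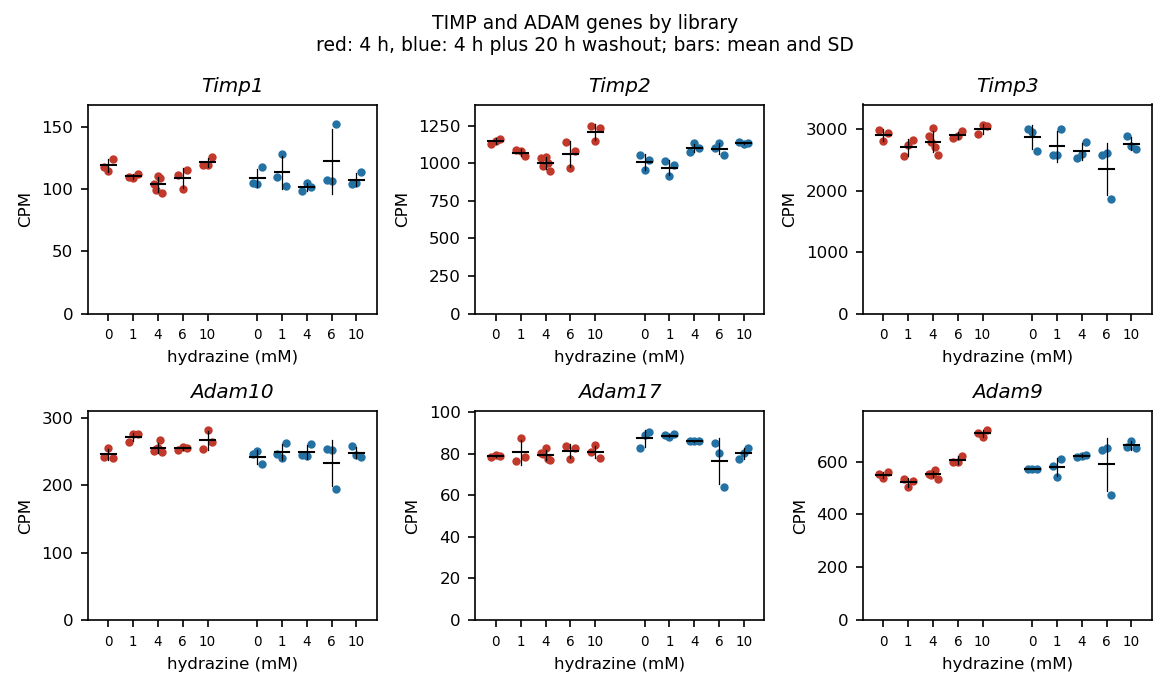
CPM of 3 TIMP and 3 ADAM genes in every library (dots) by hydrazine dose in mM at 4 h (red) and after washout (blue), with the mean as a line and 1 SD as a bar. Groups overlap for most doses, Adam9 rises to 693 to 718 CPM at 10 mM at 4 h, and library c of 6 mM after washout lies above a and b for Timp1 and below them for Timp3, Adam10 and Adam17.

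Summed over the tested genes of a family, TIMP levels were 785 ± 15.6 RPKM (SD, n = 3) in the vehicle at 4 h and 816 ± 13.7 RPKM at 10 mM. The ADAM sum went from 220.2 ± 1.22 to 264 ± 2.82 RPKM, and the MMP sum from 70.9 ± 3.99 to 93.1 ± 5.97 RPKM. In the same comparison the median log2 fold change was 0.06 over the 12 ADAM genes and -0.032 over the 11 MMP genes. Mean levels went from 549.7 to 706.5 CPM for Adam9 and from 22.8 to 75.4 CPM for Mmp13. The higher sums therefore do not show a rise across either family. The ADAMTS sum stood at 52.7 ± 2.58 RPKM in the vehicle, 62.0 ± 1.44 at 1 mM and 49.4 ± 3.29 at 10 mM. After washout the MMP sum was 71.9 ± 3.19 RPKM in the vehicle and 89.6 ± 3.15 RPKM at 6 mM, above it in every library. These sums are descriptions with no test.

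Between the highest dose and 4 mM at 4 h, 16 of the 41 genes passed, or 39%, where 54.3% of all genes did. Of the 16, 9 were higher at 10 mM (27.4% of all genes) and 7 lower (27.0%). The largest rises were in Mmp10 and Mmp13, at 3.14 ± 0.36 and 2.52 ± 0.26 in log2 (adjusted p = 1.46e-08 and 1.53e-08), and the largest falls outside Adam1a in Mmp28 and Adamts5, the latter at -1.35 ± 0.09 (adjusted p = 1.05e-12). Timp1 was higher at 10 than at 4 mM by 0.22 ± 0.08 (adjusted p = 0.0242), a call lost without 4 mM library b or e or 10 mM library b or c (adjusted p up to 0.113). Between the vehicles of the 2 times, 7 genes passed beside 6.89% of all genes, 5 of them higher after washout (3.33%) and 2 lower (3.55%). The count was 3 without washout vehicle library b (4.26% of all genes), and 4 without its library a (3.84%) or without 4 h vehicle library a (4.91%) or c (4.54%). Mmp3, Adamts9, Mmp2, Adamts14 and Adamts2 were higher after washout and Mmp13 and Timp2 lower. The calls of Adamts14, Adamts2 and Timp2, the first the largest of them at 0.37 ± 0.10 in log2, were each lost without 3 to 5 of the 6 vehicle libraries taken 1 at a time.

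The effect after washout differed from that at 4 h in 2 of the 41 genes at 1 mM, both with a lower effect after washout, beside 1.09% of all genes (0.551% higher, 0.543% lower). At 4 mM the difference passed in 7 genes beside 17.3%, with 4 higher (9.44%) and 3 lower (7.82%). At 6 mM it passed in 10 beside 24.4%, with 4 higher (12.3%) and 6 lower (12.2%). At 10 mM it passed in 11 beside 36.4%, with 7 higher (18%) and 4 lower (18.4%). As shares of the 41 these were 4.88%, 17.1%, 24.4% and 26.8%, which lie near or under the shares of all genes from 4 mM on.

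Genes around these proteases were counted by lists written from general knowledge. Of 11 tested genes that control MMP activation, 5 were higher and 1 was lower at 10 mM at 4 h, with a median log2 fold change of 0.13 beside 0.015 over all genes. Plau, the urokinase gene, rose by 1.07 ± 0.14 (adjusted p = 1.32e-07), while Reck, a membrane-anchored MMP inhibitor, fell by 0.84 ± 0.17 (adjusted p = 0.000192). Of 9 cofactors of ADAM sheddases, 2 were higher and 3 lower, at a median of -0.22, with Rhbdf2, a partner needed for ADAM17 maturation, higher by 1.98 ± 0.15 (adjusted p = 5.73e-12) and Tspan17, a tetraspanin partner of ADAM10, lower by 0.45 ± 0.16 (adjusted p = 0.0233). Of 32 known ligands and receptors that ADAMs shed, 18 were higher and 5 lower, at a median of 0.32, among them Icam1 at 2.31 ± 0.22 (adjusted p = 3.76e-10) and Notch1 at 1.85 ± 0.20 (adjusted p = 5.77e-09), while Csf1, a growth factor of macrophages, was lower by 1.52 ± 0.08 (adjusted p = 4.35e-16). All are log2 values.

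Of 17 matrix substrates, 9 were higher and 1 lower at 10 mM at 4 h, with a median log2 fold change of 0.37. Tnc, the tenascin C gene, stood at 0.96 ± 0.18 (adjusted p = 6.03e-05) and Fn1, the fibronectin gene, at 0.52 ± 0.17 (adjusted p = 0.0124). Of 10 other secreted or pericellular proteases and their enhancers, 5 were higher and 3 lower, at a median of 0.21, with the cathepsin gene Ctsb at 0.76 ± 0.05 (adjusted p = 3.25e-13) and Htra3 at -0.85 ± 0.22 (adjusted p = 0.0017). In the same comparison 26.0% of all genes were higher and 24.1% lower. After washout of 10 mM the lists held 2 of 11, 0 of 9, 5 of 32, 2 of 17 and 4 of 10 genes that passed, all higher, in the order given here, beside 5.32% of all genes.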

How the data were processed

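Bulk RNA of 32 FE1 libraries in 10 groups was measured; per the labels' protocols, RNA was extracted with Qiazol and DNase treatment, and 1 µg went into a stranded poly-A library kit with 15 cycles of PCR, sequenced as 75-base read pairs on a NextSeq instrument. The authors deposited expected counts per gene for each library, and the aligner, quantifier, genome build and strand setting are not given in the sources used here. Of the deposited expected counts above 0, 73.9% were whole, and all were rounded to whole numbers for testing. Libraries summed to 10560942 to 17086721 counts, so genes with few counts have wide errors, and the intervals given cover counting error only.

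Gene names, types, exon lengths and coordinates came from GENCODE M21 on GRCm38, which gave a symbol to 48174 of 49585 entries (97.2%); entries without a symbol held 0.0181% of the counts. Of the 83 genes, 70 had the same identifier version in both. Genes were filtered with edgeR's filterByExpr (minimum count 10, minimum total 15), leaving 13258, and scaled by TMM. A single model of all 32 libraries by group (edgeR 4.0.16 quasi-likelihood with robust estimation, R 4.3.3, limma 3.58.1; 22 residual degrees of freedom, biological coefficient of variation 0.0847) gave 14 comparisons, each with Benjamini-Hochberg adjustment over all genes tested. Values beside ± after a log2 fold change are standard errors, CPM are counts scaled to a common library total by TMM, and RPKM divides these by the exon length. Scripts were tested on simulated data. Values in every library are given for the inhibitors Timp1, Timp2 and Timp3, for Mmp14, Mmp2, Adam10 and Adam17, and for the 12 genes with the largest change in a comparison with vehicle among those that passed with a mean of at least 5 CPM in 1 of the compared groups; other genes with values were named after these were seen. The genes and lists were chosen with earlier results of these data known. Alternatives were DESeq2 1.42.0, its size factors in edgeR, all genes with a count kept, no robust estimation, the replicate letter as a block, only libraries a to c of each group, only the compared groups or the same time in the model, and each library left out in turn. Promoter windows came from a RefSeq table on GRCm38.p6. No protein sequences were used here.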

Additional observations from a re-analysis of the deposited data

Results flagged for a closer look

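The log2 effect of a dose at 4 h was subtracted from its log2 effect after washout in the same model. The differences that passed edgeR's test after adjustment over all genes differ between the times and are given here. All doses share the vehicle libraries of each time. At 1 mM the difference was -0.94 for Mmp15 and -0.60 for Adamts1, a smaller or more negative effect after washout (adjusted p from 0.02 to 0.045). At 4 mM the difference was -1.08 for Mmp15, -0.76 for Adamts1 and -0.43 for Adamts5, a smaller or more negative effect after washout, and 0.26 for Mmp14, 0.33 for Timp2, 0.51 for Adam19 and 1.01 for Adamts9, a larger or less negative one (adjusted p from 6.48e-05 to 0.0208). At 6 mM the difference was -1.32 for Mmp15, -1.29 for Adamts6, -1.27 for Adamts7, -0.80 for Adam23, -0.62 for Mmp2 and -0.40 for Adamts2, a smaller or more negative effect after washout, and 0.21 for Mmp14, 0.23 for Timp2, 0.36 for Mmp23 and 1.27 for Adam1a, a larger or less negative one (adjusted p from 5.59e-05 to 0.0426). At 10 mM the difference was -1.19 for Adamts6, -1.02 for Mmp2, -1.0 for Mmp3 and -0.46 for Adamts1, a smaller or more negative effect after washout, and 0.40 for Adam19, 0.98 for Mmp28, 1.22 for Adamts5, 1.29 for Adam22, 1.62 for Adamtsl1, 1.97 for Adam4 and 3.71 for Adam1a, a larger or less negative one (adjusted p from 7.27e-08 to 0.045). Without any 1 library these calls were kept for 0 of 2 genes at 1 mM, 5 of 7 at 4 mM, 3 of 10 at 6 mM and 4 of 11 at 10 mM. The calls of Adamts6 and Mmp23 at 6 mM were among those lost without the deviating library c of 6 mM after washout. Over all omissions of 1 library their differences ran from -1.77 to -0.87 and from 0.20 to 0.45. Without that library c, 10 genes passed at 6 mM, 8 of them shared, beside 25.2% of all genes. The value of Adam1a at 10 mM rests on 3 counts at 4 h, so its size depends on the prior count of the model and is no bound. With 1 library left out, the difference at 10 mM ran from 1.64 to 2.67 for Adam4, 1.19 to 2.29 for Adamtsl1 and 3.09 to 4.66 for Adam1a.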

How the results depend on the processing

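All counts are of the 41 genes that passed. With each library left out in turn, the counts ran from 3 to 10 at 1 mM, 11 to 18 at 4 mM, 13 to 22 at 6 mM and 16 to 20 at 10 mM at 4 h (8, 17, 18 and 19 with all libraries), and from 0 to 2, 1 to 8, 7 to 13 and 2 to 6 at the same doses after washout (2, 3, 13 and 4). They ran from 12 to 18 for 10 against 4 mM (16), from 3 to 8 for the vehicles of both times (7), and from 0 to 4, 6 to 8, 5 to 13 and 7 to 13 for the difference between the effects at both times at 1, 4, 6 and 10 mM (2, 7, 10 and 11). At 1 mM at 4 h, DESeq2, no filter on low counts and the replicate block each gave 5. At 1 mM after washout, no filter, the replicate block and libraries a to c alone each gave 1. The compared groups alone or the same time alone gave 0 in edgeR, with 6 genes at an unadjusted p under 0.05 in each. With the compared groups alone, 0.0% of all genes passed there. DESeq2, which was fitted only with all libraries, gave 2 at that dose. After washout the compared groups alone gave 14 at 4 mM, beside 11.5% of all genes, and 9 at 10 mM, beside 11.3%. At 6 mM they gave 0 (15 at an unadjusted p under 0.05), beside 0.00804% of all genes. DESeq2 with all libraries gave 12 at 6 mM. The same time alone gave 1 at 4 mM and 7 at 6 mM, and no filter gave 8 at 6 mM. For the difference between the effects, libraries a to c alone gave 1 at 1 mM, the replicate block gave 4 at 4 mM, no filter gave 5 at 6 mM and 6 at 10 mM, and the compared groups alone gave 4 at 6 mM. The replicate letters did not pair the libraries, since deviations of libraries with the same letter and time correlated at -0.347 to 0.196, over 0.1 in 4 of 60 pairs; no other count moved by over 1.5 times under the block. The causes of these changes were not tested, except that fewer libraries were fitted where groups were left out. Of 137 gene results that passed, 34 were lost with no filter, 21 under the block and 18 in DESeq2. With the compared groups alone 30 of the 132 that could be refitted were lost and with the same time alone 17 of 97, and none changed direction under the alternatives run. The same-time model does not apply to comparisons across times. Genes with few counts, such as Adam1a, Adam4 and Mmp10, have wide errors, and depth limits what can be said of the 42 genes not tested.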
